A study of Mus musculus with 6 samples.

Results

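Tmem70 and the genes of the mitochondrial respiratory chain were examined in hippocampal RNA of sham and TBI mice. The 99 genes were taken from the 52550 genes of the count files by their symbols, among protein-coding genes. They comprised Tmem70, 85 other nuclear-encoded genes of complexes I to V, and the 13 mRNAs encoded in mitochondrial DNA. Tmem70 was selected on its difference between these same 6 libraries, so its values are given as a description without a test. The other 98 genes follow from patterns of gene symbols.

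The series holds 6 libraries of total RNA from the hippocampus of young adult male C57BL / 6 mice (C57B6/J in the methods), 3 in the Sham group and 3 in the TBI group, with 1 mouse behind each library. TBI mice received a controlled cortical impact over the right parietal cortex through a craniotomy, sham mice had the same anesthesia and craniotomy with no impact, and tissue was taken at 24 h in both groups. The study's text speaks of whole hippocampus and of exposing it on both sides, and does not say whether a library held the injured side, the other side or both. In whole tissue, a lower level of an RNA in each cell and a smaller number of the cells that hold it cannot be told apart.

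The respiratory chain passes electrons from NADH and succinate through complexes I to IV to oxygen and pumps protons across the inner mitochondrial membrane, and ATP synthase, complex V, makes ATP as the protons return. All complexes except complex II mix subunits encoded in the nucleus with subunits encoded in mitochondrial DNA. TMEM70 is an inner membrane protein that binds subunit c of ATP synthase and helps its ring to assemble, and its loss in humans causes ATP synthase deficiency. Neurons depend heavily on this pathway.

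Total counts per library were 31630936 to 41771872. The counts are estimates, and since small ones cluster at multiples of 4 they were not read as numbers of reads, and no counting error was derived. Neuronal markers were present in each library, with a summed level of 6480 to 6788 CPM (counts scaled to a common library size, with TMM factors) in sham and 5665 to 5944 CPM in TBI over 8 genes, groups that did not overlap. Of these Slc17a7 averaged 1575 CPM in sham and 910 CPM in TBI and Map2 780.3 CPM and 512 CPM, while 3 of the 8, Snap25, Gad1 and Gad2, had log2 fold changes above 0. Gad1 and Gad2 were highest in TBI1, at 523 and 518 CPM. Gad1 was at 248 and 344 CPM in TBI2 and TBI3 and 247 to 315 CPM in sham. Gad2 was at 158 and 204 CPM in TBI2 and TBI3 and 153 to 183 CPM in sham. A few libraries stood apart in markers of other tissue. The 7 striatal markers summed to 3143 CPM in TBI1 and 132 to 192 CPM in the others, and the 6 cerebellar markers to 2266 CPM in TBI3 and 45.8 to 152 CPM in the others, with Gabra6 at 0 in Sham1, Sham2 and TBI1. Sham2 had the least of the 6 oligodendrocyte markers, 2862 CPM against 8537 to 10490 CPM in the others. It had the highest sum of the 6 astrocyte markers, 7252 CPM against 4577 to 5994.5 CPM in the others. Of these Gfap was at 4055 CPM in Sham2 and 541 to 1478 CPM in the others, while Gja1, Slc1a2 and Slc1a3 were lowest in Sham2. The 6 choroid plexus markers summed to 119 CPM in Sham2, 499.7 CPM in TBI1 and 554 CPM in TBI3, against 2870.3 to 3436 CPM in the other 3 libraries. The part of these libraries in the results was not tested.

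Tmem70 lies on mouse chromosome 1 of GRCm38 (chr1:16665207-16678275, plus strand), with 1820 exonic bases in 4 exon blocks and no overlapping annotated gene. In the order of their replicate numbers, the sham libraries held 2222, 2087 and 2325 counts of it and the TBI libraries 951, 966 and 988. After scaling these were 54.9, 52.0 and 60.6 CPM in sham and 23.3, 30.5 and 27.8 CPM in TBI. The groups did not overlap, and the highest TBI value was 0.587 times the lowest sham value. Mean levels were 55.8 ± 4.35 CPM for sham and 27.2 ± 3.65 CPM for TBI (SD, n = 3 each), and the fitted log2 fold change was -1.04. Leaving out both TBI1 and TBI3 gave -0.87.

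Genes close to Tmem70 were listed beside it by position. Eloc (chr1:16641725-16657042, minus strand), which encodes elongin C, a part of ubiquitin ligases, lies 8164 bases away. Its level was 136, 110.0 and 130.4 CPM in sham and 120 CPM, 130.2 CPM and 134.5 CPM in TBI, overlapping ranges with a log2 fold change of 0.03 (SE 0.12). By edgeR's quasi-likelihood test the adjusted p was 0.992. Ly96, which encodes the partner of TLR4 in sensing lipopolysaccharide, lies 9775 bases away and held 14 to 51 counts. D030040B21Rik was at 0 in all libraries, and Gm7654 held 1 count in TBI3 and 0 in the others.

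**Figure D1:**
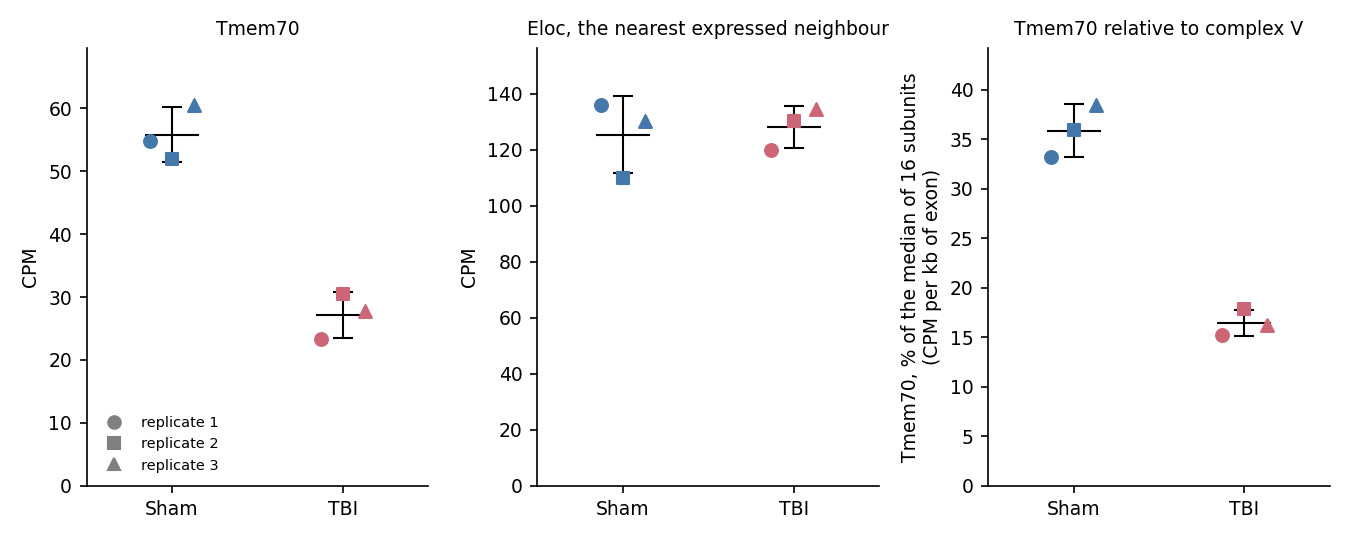
Level of Tmem70 (left, CPM), level of Eloc (middle, CPM) and level of Tmem70 as a percentage of the median of 16 complex V subunits, both per kb of exon (right). Points are libraries, with the symbol giving the replicate number, and bars are the mean ± SD of 3 libraries; the TBI points for Tmem70 sit between 23.3 and 30.5 CPM, under the sham points of 52.0 to 60.6 CPM, while those of Eloc overlap.

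Set against the enzyme it serves, Tmem70 was at a low level. Per kb of exon it stood at 33.2%, 35.9% and 38.5% of the median of 16 complex V subunits in the sham libraries, and at 15.2%, 17.8% and 16.3% in the TBI libraries. Against the summed level of Atp5g1, Atp5g2 and Atp5g3, the 3 genes of subunit c, Tmem70 was at 13.7% ± 0.827 in sham and 6.55% ± 0.75 in TBI (SD, n = 3 per group). Among 51 assembly factors of the 5 complexes ordered by mean level per kb of exon, Tmem70 was number 7 in sham and number 20 in TBI.

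The nuclear-encoded subunits as a group gave no call. Of the 85 genes other than Tmem70, 84 passed the filter on low counts, and Cox8c, a testis isoform of complex IV, was at 0 in all libraries. To be called, a gene needed a fold change over 1.5 in either direction together with p below 0.05 and, after adjustment, below 0.1. By edgeR's quasi-likelihood test 0 of the 84 were called, as were 0 of all 18795 genes tested (0%), where the smallest adjusted p over the 84 was 0.982. With DESeq2's defaults 0 of the 84 were called, against 46 of 20786 genes (0.221%). At an unadjusted p under 0.05 edgeR's quasi-likelihood test gave 0 of the 84, against 806 of all genes (4.29%).

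The estimates lay close to 0 and mostly above it. The log2 fold change was above 0 in 71 of the 84 and below 0 in 13, with a median of 0.08, beside a median of 0.01 over all genes tested. This median moved with single libraries, and was 0.02 without TBI3, 0.04 without Sham2 and 0.16 without Sham1 or without TBI1. The quartiles were 0.03 and 0.13 for the 84 genes and -0.18 and 0.21 for all genes. In 73 of the 84 the 95% interval lay within a fold change of 1.5 in both directions, which was so for 5632 of the 18795 genes. All 73 were among the 77 genes left when 8 minor isoforms were set aside, and of 4453 genes tested in the range of CPM of those 77, Atp5s aside, it was so for 2733. The other 11 were Ndufb10, Ndufa4l2, Ndufa5, Ndufa6, Ndufs6, Cox4i2, Cox6a2, Cox6b2, Cox7a1, Cox7b2 and Cox8b, and for these the data leave a larger difference possible. The SD within groups had a median of 0.15 on the log2 scale over the 84 genes, and 0.32 over all genes tested, whose median level was 15.6 CPM against 136 CPM for the 84. It was 0.15 over the 77 genes and 0.18 over the 4453.

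**Figure D2:**
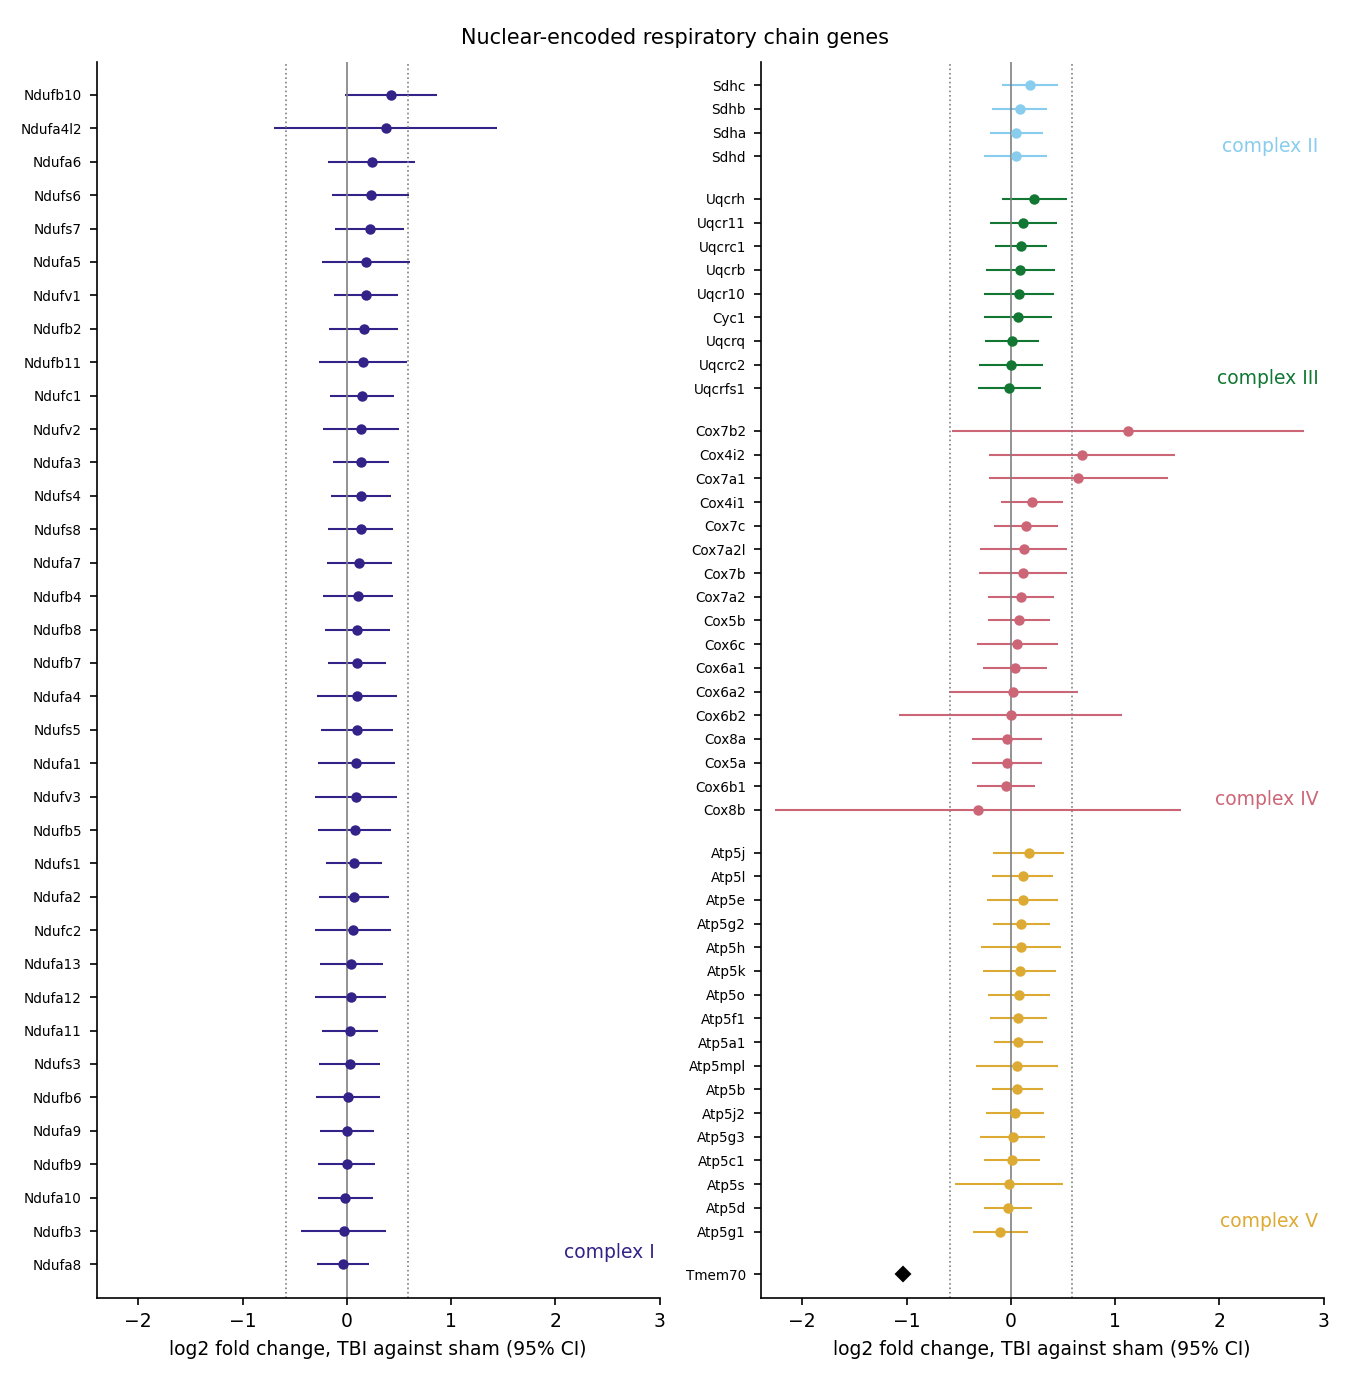
Log2 fold change of TBI against sham for 83 of the nuclear-encoded subunit genes that passed the filter and for Tmem70 (black diamond), grouped by complex, with 95% intervals as horizontal bars for the genes other than Tmem70, and dotted lines at a fold change of 1.5. The 83 points run from -0.31 (Cox8b) to 1.12 (Cox7b2), with 72 intervals inside the dotted lines, and Tmem70 stands at -1.04.

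The groups of libraries did not overlap for 3 of the 84 genes, all higher in TBI, where 4.77% of all genes were higher in this way. In the other direction it was 0 of the 84, and 5.45% of all genes. The 3 genes were Ndufb10, Sdhc and Cox4i2. These counts turned on TBI1. Without TBI1, 34 of the 84 were higher with no overlap (40.5%), beside 11.4% of all genes, and 4 of the 84 had an unadjusted p under 0.05 by edgeR's quasi-likelihood test (Ndufb10, Ndufs6, Uqcrh and Cox7a1), beside 4.33% of all genes. Without Sham1 it was 16 of the 84, beside 8.84% of all genes. Without Sham2, Sham3, TBI2 and TBI3 in turn it was 4, 6, 6 and 3 of the 84 (4.76%, 7.14%, 7.14% and 3.57%). All genes stood at 9.95%, 9.93%, 9.96% and 8.03% in these settings, above the 84 each time. No gene of the 84 was called without any 1 library.

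Averaged over genes, the sham and TBI libraries overlapped in complexes I, III, IV and V. The mean of log2 CPM over the 84 genes, with the sham average set to 0, was 0.10, -0.12 and 0.02 in the sham libraries and -0.04, 0.13 and 0.22 in the TBI libraries. TBI1, the library with the striatal markers, was inside the sham range, and TBI3, the library with the cerebellar markers, was the highest of all. Sham2 was the lowest, most of all in complex IV at -0.27. Complex II ran from 0.03 to 0.16 in TBI and from -0.03 to 0.02 in sham, and was the sole complex in which the means of the groups did not overlap, over 4 genes.

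**Figure D3:**
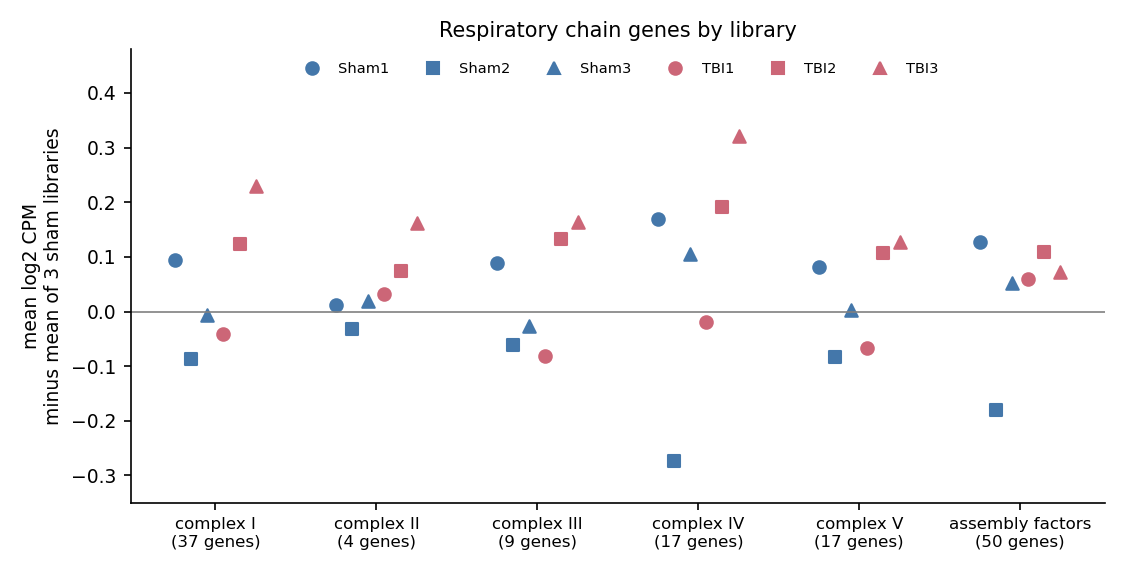
Mean log2 CPM of the genes of each complex and of the assembly factors, minus the mean of the 3 sham libraries (vertical axis), with a point for each library. TBI1 lies within the sham range in complexes I, IV and V and under it in complex III, TBI3 is the highest in each complex; the assembly factors, without Tmem70, run from -0.18 in Sham2 to 0.13 in Sham1.

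Complex I, the NADH dehydrogenase, had 37 nuclear-encoded genes, of which 33 had a log2 fold change above 0, with a median of 0.10. The highest estimate was that of Ndufb10, an accessory subunit of the membrane arm (chr17:24722060-24724478, minus strand). Its level was 105.5, 83.4 and 103.8 CPM in sham and 115.7, 113.3 and 163.5 CPM in TBI, with TBI starting at 1.07 times the top of the sham range. Its log2 fold change was 0.42 (SE 0.18), with an adjusted p of 0.982 by edgeR's quasi-likelihood test, and was 0.23 without TBI3 and 0.21 without TBI1 and TBI3. The lowest estimate was that of Ndufa8, another accessory subunit, at -0.03 (SE 0.10), with 109 to 122 CPM in sham and 110.2 to 118 CPM in TBI. Per kb of exon, averaged over the 6 libraries as in the other complexes, the highest level was that of Ndufb9, at 224 CPM per kb, though in TBI Ndufa1 stood at 225 CPM per kb and Ndufb9 at 223 CPM per kb, and 19.5% of its exonic bases overlap another gene.

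Complex II, succinate dehydrogenase, is encoded in the nucleus alone, and its 4 genes had log2 fold changes of 0.05 to 0.18. Sdhc, a membrane anchor (chr1:171127165-171150603, minus strand), gave 98.5, 88.3 and 98.2 CPM in sham and 105.8, 101.9 and 115.9 CPM in TBI. Its groups did not overlap, though TBI started at 1.03 times the top of the sham range, and the log2 fold change was 0.18 (SE 0.11), with an adjusted p of 0.982 by edgeR's quasi-likelihood test. Without TBI3 it was 0.12, and without TBI1 and TBI3 0.10. Sdhd, the other anchor, had the lowest value at 0.05 (SE 0.13). Sdha, the flavoprotein, was highest per kb of exon at 127 CPM per kb, with 493 to 532 CPM in sham and 491 to 578 CPM in TBI.

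Complex III, which passes electrons from ubiquinol to cytochrome c, had 9 nuclear-encoded genes with a median of 0.07. The highest was Uqcrh, the hinge subunit, at 144.3, 123.2 and 143.4 CPM in sham and 139.5, 170.9 and 170.2 CPM in TBI, a log2 fold change of 0.23 (SE 0.13) with overlapping groups. The adjusted p was 0.982 by edgeR's quasi-likelihood test. The lowest was Uqcrfs1, the Rieske iron-sulfur protein, at -0.02 (SE 0.13). The other catalytic and core genes were Cyc1 at 0.07, Uqcrc1 at 0.09 and Uqcrc2 at 0.00, and Uqcr11 had the highest level per kb of exon, 257 CPM per kb.

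Complex IV, cytochrome c oxidase, had 18 nuclear-encoded genes, of which 17 passed the filter, with a median of 0.08. It held the nuclear-encoded RNA with the highest level per kb of exon among the 84 genes, Cox6a1, at 867, 677 and 696 CPM in sham and 768, 788 and 744 CPM in TBI, or 1078 CPM per kb over the 6 libraries. Both ends of the range belonged to isoforms of low level. Cox7b2, an isoform of the testis, had 4 to 10 counts in sham and 5 to 20 in TBI, and the log2 fold change of 1.12 had an SE of 0.71. Cox8b, known from heart, muscle and brown fat, had the lowest value at -0.31 with an SE of 0.81. Neither passed edgeR's quasi-likelihood test, with an adjusted p of 0.982 and 0.985.

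Isoform families showed the pattern of brain in each library. Per kb of exon, Cox4i1 made 98.5% to 99.4% of the 2 Cox4i genes, Cox6a1 98.6% to 99.2% of the Cox6a genes, Cox6b1 98.7% to 99.5% of the Cox6b genes, and Cox8a 99.5% to 99.9% of the Cox8 genes. Cox7b made 99.4% to 99.9% of its pair, and Ndufa4, now counted with complex IV in many accounts, 98.7% to 99.5% of its own. In the Cox7a family Cox7a2 made 62.0% to 67.2% and Cox7a2l, a factor of supercomplexes, 31.3% to 36.6%, while the muscle isoform Cox7a1 made 1.14% to 2.57%. The 3 genes of subunit c, which make the same mature protein, were shared as Atp5g3 49.0% ± 4.12, Atp5g2 33.9% ± 2.89 and Atp5g1 17.2% ± 1.9 in sham, and 48.7% ± 1.58, 35.6% ± 1.54 and 15.7% ± 1.04 in TBI (SD, n = 3 per group). These shares depend on exonic length, which was 4912 bases for Atp5g1 and 1675 bases for Atp5g2. By CPM alone Atp5g1 was above Atp5g2, at 188 and 127 CPM in sham and 175 and 136 CPM in TBI.

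The minor isoforms varied more between libraries than the major ones. Cox4i2 (chr2:152754173-152765037, plus strand), the isoform linked to low oxygen, was at 1.90, 1.22 and 1.64 CPM in sham and 3.601, 1.99 and 2.05 CPM in TBI. Its groups did not overlap, with TBI1 far above the rest and TBI starting at 1.05 times the top of the sham range. Its log2 fold change was 0.68 (SE 0.37), with an adjusted p of 0.982 by edgeR's quasi-likelihood test. Without TBI1 it was 0.35. Cox8b was at 1.83, 0.224 and 1.46 CPM in sham and 0.416, 1.52 and 0.899 CPM in TBI. The 3 libraries highest in Cox8b, Sham1, Sham3 and TBI2, were also those highest in the sum of the 6 choroid plexus markers, which were all measured in each library. The 7 skeletal muscle markers summed to 5.18 to 8.82 CPM in all libraries, and the part of other tissue in the values of Cox8b was not tested.

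**Figure D4:**
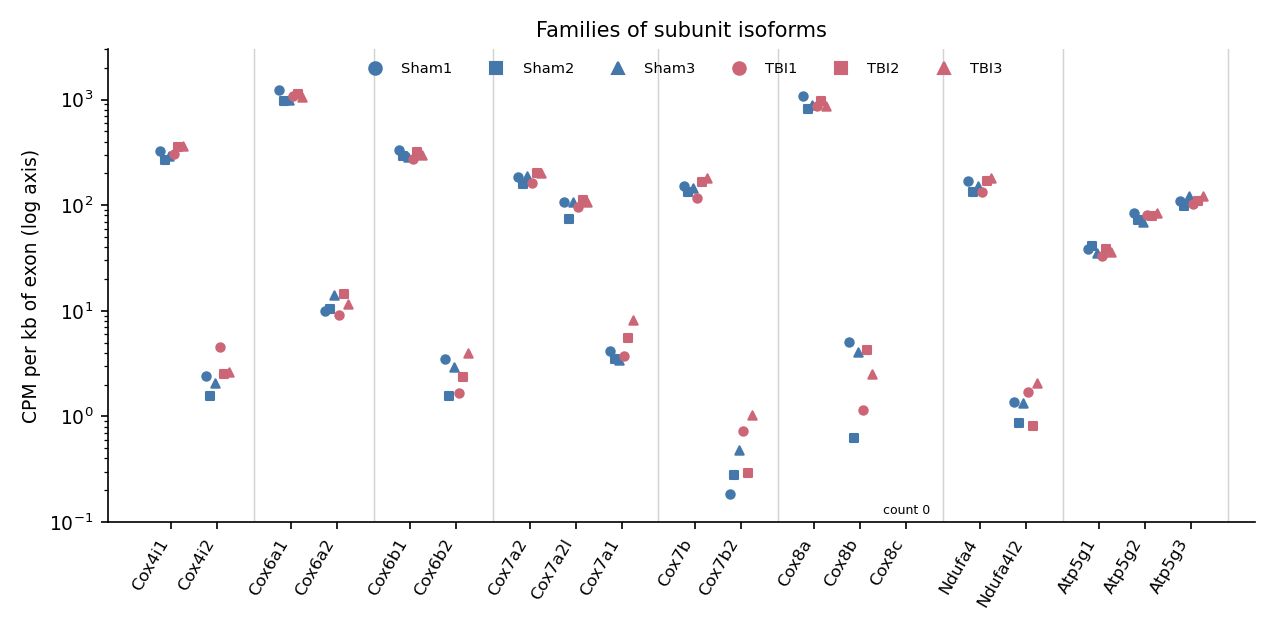
Level of each gene of the isoform families, as CPM per kb of exon on a log axis, with a point for each library. The major isoforms lie between about the levels of Atp5g1 and Cox6a1 with the 6 libraries close together, the minor isoforms lie far below with wider spread, and Cox8c has a count of 0.

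Complex V, ATP synthase, had 17 nuclear-encoded genes besides Tmem70, with log2 fold changes of -0.10 to 0.17 and a median of 0.07, and each of the 17 intervals lay within a fold change of 1.5. Atp5b, the catalytic beta subunit, had the highest level per kb of exon of the complex, 367 CPM per kb. It was at 1506, 1515 and 1544 CPM in sham and 1496, 1544 and 1717 CPM in TBI, overlapping groups with a log2 fold change of 0.06 (SE 0.10). The adjusted p was 0.984 by edgeR's quasi-likelihood test. The 5 genes of the F1 head and central stalk ran from -0.02 (Atp5d) to 0.11 (Atp5e), the 4 genes of the peripheral stalk from 0.07 (Atp5f1) to 0.17 (Atp5j, 0.09 without Sham2), and the 4 small subunits of the membrane part from 0.04 (Atp5j2) to 0.11 (Atp5l).

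The ring of subunit c, to which TMEM70 binds, showed the lowest estimate of the complex. Atp5g1 was at 189, 199.6 and 174.7 CPM in sham and 161.9, 187.6 and 176.1 CPM in TBI, a log2 fold change of -0.10 (SE 0.11), which was -0.05 without TBI1. Atp5g2 was at 0.10 and Atp5g3 at 0.02, and in none of the 3 did the groups separate. Summed over the 3 genes, sham averaged 554 CPM and TBI 553 CPM. Atp5s, an accessory factor at 13.3 to 22.1 CPM, had a value of -0.02 (SE 0.22).

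Genes that build the complexes without being part of them gave a like picture. Of 51 assembly factors listed besides Tmem70, 50 were matched to a symbol and all 50 passed the filter. By edgeR's quasi-likelihood test 0 were called and 0 had an unadjusted p under 0.05, and 33 were above 0 and 17 below, with a median log2 fold change of 0.08. The largest of the 50 values in either direction was 0.38, that of Atpaf1. Beside Tmem70 the list for complex V held Atpaf1 and Atpaf2, chaperones of the beta and alpha subunits, Tmem242, which helps the c ring to form, and Fmc1, and all 4 were above 0. Atpaf1 was at 55.8, 37.4 and 56.2 CPM in sham and 68.8, 59.7 and 66.4 CPM in TBI (log2 fold change 0.38, SE 0.18). Tmem242 was at 74.7, 66.4 and 69.6 CPM in sham and 78.5, 85.9 and 85.5 CPM in TBI (log2 fold change 0.24, SE 0.11). The groups did not overlap in either. Over the 50 factors this was so for 4 genes higher in TBI and for 2 lower in TBI, Foxred1 and Ttc19, beside the 4.77% and 5.45% of all genes given above. For Atpaf1 and Tmem242 both adjusted p were 0.982 by edgeR's quasi-likelihood test.

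The 13 mRNAs of mitochondrial DNA were listed at 0 in all 6 libraries. These were mt-Nd1, mt-Nd2, mt-Nd3, mt-Nd4, mt-Nd4l, mt-Nd5 and mt-Nd6 of complex I, mt-Cytb of complex III, mt-Co1, mt-Co2 and mt-Co3 of complex IV, and mt-Atp6 and mt-Atp8 of complex V. All 37 genes of the mitochondrial chromosome, rRNAs and tRNAs included, were at 0, although brain is rich in these RNAs. Whether the mitochondrial chromosome was part of the reference used for alignment, or its genes were set to 0 later, is not given in the sources used here, so the zeros are not read as levels. No fold change could therefore be given for the mitochondrial part of the chain.

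Counts stood instead on a nuclear stretch that repeats mitochondrial sequence. On chromosome 1 (chr1:24611535-24616197, GRCm38, minus strand), 7 annotated pseudogenes hold parts of 7 of the 13 mRNAs. They match over 4140 aligned bases with 2 mismatches, and 5 of the 7 are identical to the mitochondrial gene over their aligned length. The substitutions were T3C between mt-Nd3 and Gm28438, and A1066T between mt-Co1 and Gm29216, with the mitochondrial base first and positions counted from 1 at the start of the mitochondrial gene. Over the identical bases, reads from the mitochondrial mRNA and from this copy cannot be told apart. The first 60 shared bases of mt-Nd3 and of mt-Co1 with their copies are shown because they hold those mismatches, 5′ to 3′ along the mitochondrial gene, with bases that differ from it in capitals. Gm13340 on chromosome 2 and Gm11512 on chromosome 11 are less similar copies of mt-Co1, for comparison.
mt-Nd3 (chrM:9459-9518, plus strand): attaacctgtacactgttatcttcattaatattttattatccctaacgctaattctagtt
Gm28438 (chr1:24613060-24613119, minus strand): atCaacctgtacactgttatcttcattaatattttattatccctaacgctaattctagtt
mt-Co1 (chrM:6390-6449, plus strand): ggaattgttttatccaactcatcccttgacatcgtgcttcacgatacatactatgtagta
Gm29216 (chr1:24616129-24616188, minus strand): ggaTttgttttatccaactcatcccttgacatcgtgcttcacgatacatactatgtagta
Gm13340 (chr2:22588526-22588585, minus strand): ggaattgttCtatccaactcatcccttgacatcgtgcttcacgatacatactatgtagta
Gm11512 (chr11:90538904-90538963, minus strand): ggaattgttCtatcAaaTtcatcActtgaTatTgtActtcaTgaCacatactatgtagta

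The 7 genes of the copy held 2.47%, 2.04% and 2.48% of all counts in the sham libraries and 2.68%, 2.77% and 2.495% in the TBI libraries. The share was 2.33% ± 0.249 in sham and 2.65% ± 0.139 in TBI (SD, n = 3 per group), with the lowest TBI library, TBI3, just above the highest sham library. On TMM-scaled values averaged over the 7 genes the groups overlapped, with TBI3 at 0.09 on the log2 scale and Sham1 and Sham3 at 0.13 and 0.11. The 86 nuclear-encoded genes, Tmem70 included, together held 1.43% to 1.72%, less than the copy in each library. The 13 mitochondrial mRNAs, listed at 0, added nothing to this share. In each library 4 or 5 of the 7 were among the 10 genes with the highest counts. Gm28661, the copy of mt-Co2, held 192871 to 237318 counts in sham and 194870 to 268596 in TBI.

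Counts were highest on the genes most similar to a mitochondrial gene, though not in strict order. The 7 genes with 99.7% to 100% identity held 27131 to 268596 counts in a library. Gm13340 (97.6%) held 6210 to 9196, Gm13339 (96.7%, a copy of mt-Nd2) held 37 to 71, Gm13341 (95.9%, a copy of mt-Co2) held 431 to 667, Gm4076 (95.2%, a copy of mt-Nd5) held 18 to 64, and Gm11512 (90.7%) held 0 or 1. Gm13340 is a whole copy of mt-Co1, whereas Gm29216 holds 31.3% of it, yet Gm29216 had 117917 to 152720 counts. For mt-Nd1, mt-Nd2, mt-Nd5, mt-Nd6, mt-Cytb and mt-Atp8, 6 of the 13, the annotation had no gene on this copy.

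**Figure D5:**
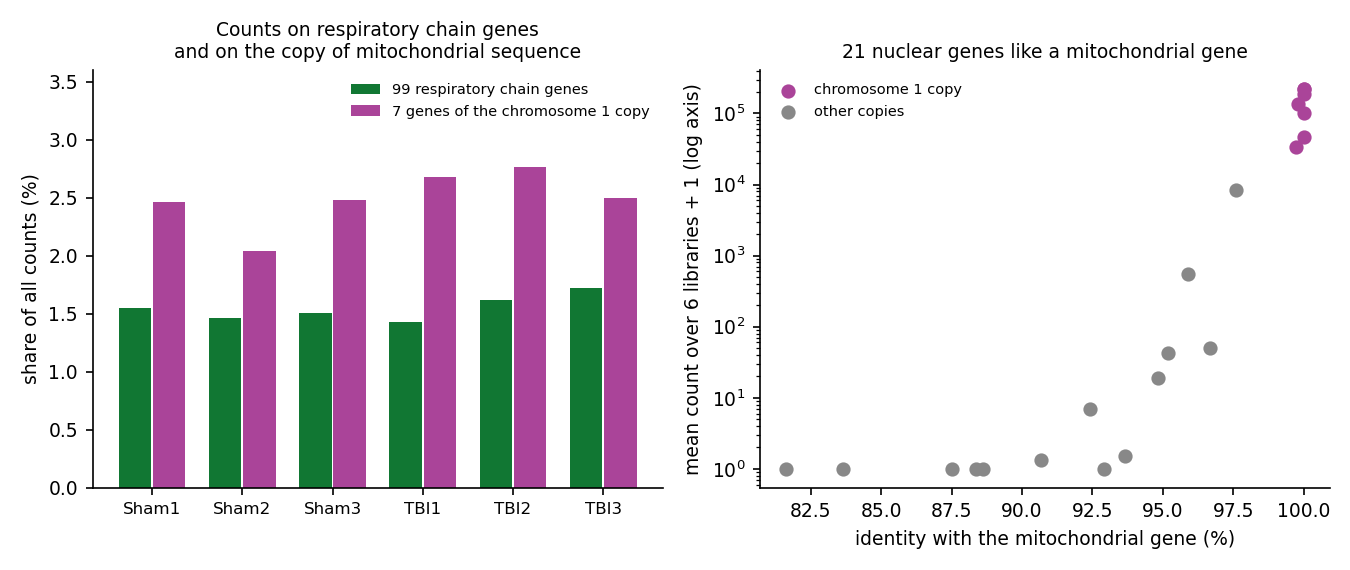
Left, share of all counts on the 99 respiratory chain genes and on the 7 genes of the chromosome 1 copy, for each library. Right, mean count over 6 libraries plus 1 (log axis) against identity with the mitochondrial gene for 21 nuclear genes like one; the 7 genes of the copy (purple) stand at the upper right, and the genes at 93.6% identity or less hold at most 14 counts in a library.

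Between the groups, the 7 genes of the copy had log2 fold changes of 0.14 (Gm28437, copy of mt-Co3) to 0.24 (Gm29216), with a median of 0.18. By edgeR's quasi-likelihood test 0 of the 7 were called, each with an adjusted p of 0.982. Gm29216 was at 3429, 2939 and 3652 CPM in sham and 3741, 4283 and 3797 CPM in TBI and was the sole gene of the 7 with no overlap. Sham2 was the lowest library for all 7, and without it the median was 0.07. The less similar copies Gm13340 and Gm13341 had log2 fold changes of 0.41 (SE 0.17) and 0.43 (SE 0.17), with an adjusted p of 0.982 for both by edgeR's quasi-likelihood test, and their groups did not overlap.

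The log2 fold changes of Eloc, Ndufa8, Sdhd, Uqcrfs1, Cox7b2 and Cox8b turned sign when 1 library, or TBI1 and TBI3 together, were left out.

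Copies were also sought for the nuclear-encoded genes, among annotated transcripts. Pseudogenes with at least 100 aligned bases at 95% identity or more were found for 21 of the 86 nuclear-encoded genes, and their counts came to at most 3.02% of those of the gene itself, for Atp5l. Exonic overlap with another gene was present in 29 of the 86 and covered over 10% of exonic bases in 11, Atp5j, Ndufb9, Cox6a2 and Uqcrc2 among them, and strandedness was not stated in the sources used here, so counts there may be shared with the overlapping gene.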

How the data were processed

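RNA-seq libraries of 3 sham and 3 TBI hippocampi were used. The values are estimated counts per gene, deposited by the authors as whole numbers without normalization. Per the labels and methods, reads were checked with FastQC, aligned to GRCm38 with HISAT2 and quantified with StringTie, whose versions, annotation, strandedness and step to counts are not given in the sources used here. Of 52550 identifiers 52403 were matched to GENCODE vM21 symbols. Groups followed the sample titles.

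Counts were filtered with filterByExpr, which left 18795 genes, scaled by TMM (factors 0.97 to 1.02) and tested with edgeR 4.0.16 in R 4.3.3 (quasi-likelihood test, Benjamini-Hochberg adjustment over all genes), with DESeq2 1.42.0 as an alternative. CPM per kb was CPM divided by the joined length of all annotated exons of a gene. Levels, shares and orders per kb depend on that length. The SE of a log2 fold change was its size divided by the root of its F statistic, and log2 CPM had a prior count of 2. Copies of mitochondrial and nuclear genes were found with BLAST+ 2.17.0 among the GENCODE vM21 transcript sequences. Copies outside annotated transcripts were therefore not sought. Scripts were tested on simulated counts. P-values measure the spread between 3 mice per group.

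Named were Tmem70, genes within 20 kb of it, the mitochondrial mRNAs, in each complex the highest level and both extremes of log2 fold change, isoform families, genes that failed the filter, and genes with an unadjusted p under 0.05. Sdhc and Cox4i2, whose groups did not overlap, the copies, and the remaining genes were named after their values were seen. Members and lists were chosen with earlier results of these data known. Alternatives were other scalings, filters, dispersions and tools, each library left out, and a replicate block. The authors' own comparison results were not used. The values of 1 gene are not reported here.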

Additional observations from a re-analysis of the deposited data

How the results depend on the processing

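The count of called members stayed at 0 in all alternatives, a stricter adjusted p and no fold change threshold included. The median log2 fold change of the 84 subunit genes ran from 0.02 (without TBI replicate 3) to 0.16 (without Sham replicate 1), and that of Tmem70 from -1.14 to -0.94 with 1 library left out, and was -0.87 without TBI replicates 1 and 3. With 1 library left out, members that did not overlap numbered 3 to 34 of 84 higher and 0 to 3 lower, members with an unadjusted p under 0.05 by edgeR 0 to 4, and list genes with such a p 0 to 3. Over all genes, 8.03% to 11.4% were higher and 9.17% to 11.5% lower with no overlap, and 2.49% to 5.82% had such a p. The signs of 6 named genes turned. With 1 library left out, Uqcrfs1 ran from -0.12 to 0.060 (above 0 without Sham replicate 1 or TBI replicate 1), Cox8b from -0.84 to 0.16 (above 0 in the same settings), Eloc from -0.056 to 0.10 (below 0 without Sham replicate 2 or TBI replicate 3) and Sdhd from -0.042 to 0.13 (below 0 without TBI replicate 3). Without TBI replicates 1 and 3, Ndufa8 was at 0.0021, Cox7b2 at -0.10 and Cox8b at 0.37. The cause was not tested. In the other 221 of 231 values of named genes the direction and call held.

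With the replicate number as a block, 1 member (higher) and 2 list genes had an unadjusted p under 0.05 by edgeR, and no call changed. The share of all genes with such a p in that fit is not given here, so these counts are not read as a result. Same-numbered libraries had correlations of -0.1, -0.07 and 0.15 of their deviations from group means, so the numbers were not taken as pairs.

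Counting the chromosome 1 copy as mitochondrial moved the mitochondrial share from 0 to 2.33% in sham and 2.65% in TBI. No median could be given for the mitochondrial mRNAs, since all counts were 0. Alternatives chosen after seeing the data were the omission of both TBI replicates 1 and 3, scaling without the copy, and overlap with 1 library left out.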

Other observations

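Genes that work beside the chain, on lists of carriers, the tricarboxylic acid cycle and mitochondrial gene expression, gave 0 calls by edgeR's quasi-likelihood test. Over all lists, assembly factors included, 89 of 90 genes were matched and tested, 60 had a log2 fold change above 0 and 29 below, and the median was 0.06. Of the 11 carriers 8 were above 0, with a median of 0.04. Slc25a4, the ADP/ATP carrier of adult muscle and brain, was the highest of the lists per kb of exon, at 391 CPM per kb, and stood at 974, 835 and 913 CPM in sham and 838, 938 and 1017 CPM in TBI. Cytochrome c (Cycs) was at 236 to 247 CPM in sham and 238 to 278 CPM in TBI.

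Of the 13 genes of the tricarboxylic acid cycle 8 were above 0, with a median of 0.02. Suclg2, a subunit of succinyl-CoA ligase, was at 27.5, 22.9 and 28.6 CPM in sham and 32.0, 31.5 and 31.2 CPM in TBI, groups that did not overlap. The same held for Ogdh (log2 fold change 0.16, SE 0.11), so for 2 of the 13, both higher, beside 4.77% of all genes. For Suclg2 the log2 fold change was 0.26 (SE 0.14), with an adjusted p of 0.982 by edgeR's quasi-likelihood test.

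The gene of the lists with an unadjusted p under 0.05 was Slirp, which with Lrpprc stabilizes the mRNAs of mitochondrial DNA. It was at 34.3, 33.2 and 33.6 CPM in sham and 52.2, 69.3 and 37.9 CPM in TBI, a log2 fold change of 0.66 (SE 0.22). The groups did not overlap, the adjusted p was 0.982 by edgeR's quasi-likelihood test, and the p was no longer under 0.05 without Sham1, Sham2 or Sham3, at log2 fold changes of 0.65 to 0.67, or without TBI2, at 0.42. Lrpprc was at 67.2 to 74.9 CPM in sham and 62.5 to 70.1 CPM in TBI. Ppargc1a and Tfam, regulators of mitochondrial biogenesis, had log2 fold changes of 0.08 (SE 0.21) and 0.19 (SE 0.13).

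A pair of assembly factors differed widely between libraries of the same group. Pet117, a factor of complex IV, was at 7.11, 0.025 and 5.37 CPM in sham and 4.997, 6.23 and 0.028 CPM in TBI, so that Sham2 and TBI3 were nearly without counts. Ndufaf4, a factor of complex I, was at 14.5, 42.4 and 18.5 CPM in sham and 14.8, 37.7 and 17.4 CPM in TBI, with Sham2 and TBI2 the highest. These genes were singled out after their values were seen.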
